A study of Mus musculus with 8 samples.

Results

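Amino acid transporters of the families Slc1a, Slc3a, Slc6a, Slc7a, Slc36a, Slc38a and Slc43a were examined in kidneys that lack Keap1. The genes were chosen by symbol, as all named array genes of these 7 families other than Slc7a11, Slc6a6 and Slc6a12, and had to have a probe well above background, by the scanner software's own flag, on at least 4 of the 8 arrays. Of 56 such genes on the array 43 passed, among 13570 named genes and 19593 genes and unnamed transcripts tested in all. Of the 13 that did not pass, 8 were not well above background on any array, among them Slc1a7, Slc36a3, Slc38a8 and Slc7a15, and Slc6a7, Slc6a11, Slc7a14, Slc7a10 and Slc38a5 reached that level on 1 to 3 arrays. Slc7a10 and Slc38a5, each on 3 arrays, lay just outside the rule, with mean levels of -5.85 and -5.55, and Slc36a4, on 4 arrays with -5.09, lay just inside it, as did Slc1a6 on 6. All levels are log2 intensities relative to the array's own 75th percentile, so 0 is that percentile and a level can be compared between mice but not between genes. Slc7a6os matches the symbol rule but is a gene next to Slc7a6 and not a carrier.

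The mice were NEKO mice (Keap1-/-::Nrf2Flox/Flox::K5-Cre, n = 4) and control mice (n = 4), all 8 weeks old and of mixed 129Sv/J and C57BL/6J background, with 2 females and 2 males in each group. All of them carried the floxed Nrf2 alleles, and all controls had a single intact Keap1 allele: control female replicate 1 was K1 (Keap1+/-::Nrf2Flox/Flox), and the other 3 controls were K1Cre (Keap1+/-::Nrf2Flox/Flox::K5-Cre). K5-Cre is active in squamous epithelium, so the kidney of a NEKO mouse lacks Keap1 while its renal epithelium keeps Nrf2, which Keap1 otherwise marks for degradation. Total RNA of each kidney was labelled with Cy3 and hybridised to its own array, with 1 slide holding all females and another holding all males. Both genotypes were on each slide, so the genotypes can be compared within it, whereas sex and slide cannot be told apart. Keap1 itself was 1.84 ± 0.07 in control and 0.20 ± 0.17 in NEKO mice (SD, n = 4 each), a difference of -1.63 (SE 0.10, limma adjusted p = 0.0046).

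The kidney filters free amino acids and takes nearly all of them back in the proximal tubule, where carriers in the brush border move them into the cell and carriers in the basolateral membrane pass them on to the blood. Slc6 and Slc1 carriers are driven by sodium, Slc36 carriers by protons, and the Slc7 light chains are mostly exchangers that need a Slc3 heavy chain to reach the membrane. Slc38 carriers move glutamine and small neutral amino acids, and several genes of these families are known to respond to the transcription factor ATF4 when amino acids run short. The 10 proximal tubule markers were detected in every kidney, and their summed level (log2 of summed intensities, which the brightest genes dominate) ran from 9.22 to 9.55 in control and from 9.33 to 9.59 in NEKO mice. Singly they went both ways: at an unadjusted p under 0.05 the organic anion carriers Slc22a8 (0.82) and Slc22a6 (0.34) were higher and the glucose carrier Slc5a2 (-0.43) lower in NEKO mice, with 0 past the adjusted threshold and a median of 0.02 over the list. These genes made 30% of the list, against 18.0% of all features at the unadjusted threshold. In RNA of whole kidney, fewer cells of a type and less RNA per cell cannot be told apart.

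No transporter of the 43 passed the threshold of limma adjusted p under 0.05, in a fit with genotype and sex over all 19593 features. Across all features 19 passed as higher in NEKO mice (0.0970%) and 25 as lower (0.128%). At an unadjusted p under 0.05, 5 of the 43 were higher (Slc38a3, Slc1a4, Slc38a7, Slc7a3 and Slc6a9) and 7 lower (Slc38a1, Slc43a2, Slc1a5, Slc6a15, Slc7a6os, Slc6a14 and Slc6a17), against 7.37% and 10.6% of all features. These 12 genes make 27.9% of the family genes that passed detection, and the same criterion in either direction held for 18.0% of all features. The 4 NEKO mice lay above all 4 controls for 2 genes, Slc38a3 and Slc38a7, and below all of them for 3, Slc38a1, Slc43a2 and Slc7a6os. Of the 19514 features with a value on every array, 3.89% were separated upwards in this way and 5.36% downwards. The families went both ways, with 22 genes at a positive and 21 at a negative difference and a median of 0.00 (all features, -0.03). For 34 of the 43 the difference was within 0.5 on the log2 scale, and for 6 it was over 1.

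**Figure D1:**
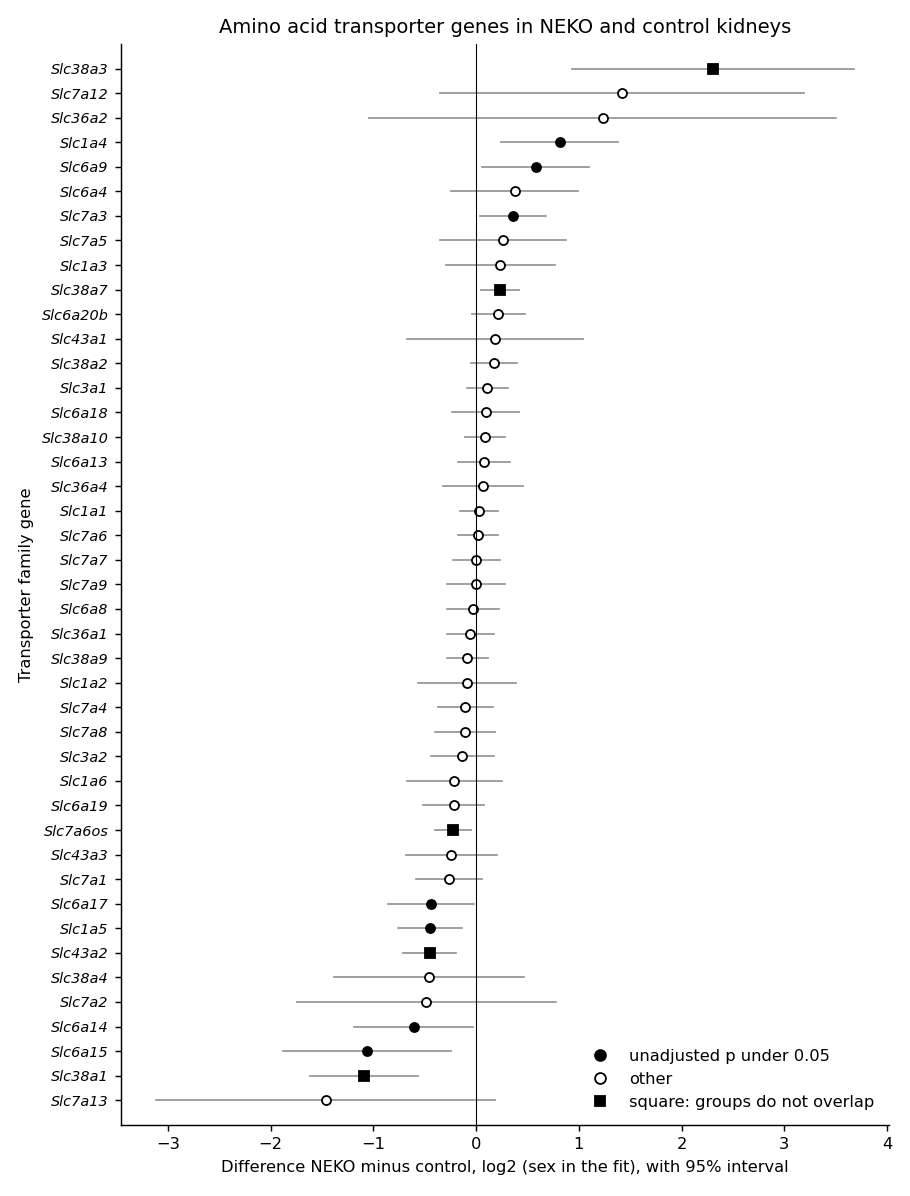
Fitted log2 difference between NEKO and control kidneys for the 43 transporter family genes, in order of size, with the 95% interval from limma (4 mice a group, sex in the fit). Filled symbols mark the 12 genes at an unadjusted p under 0.05 and squares the 5 genes whose groups do not overlap; Slc38a3 is at the top with 2.30 and Slc7a13 at the bottom with -1.46, and the wide intervals belong to Slc36a2, Slc7a12 and Slc7a13.

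Slc38 carriers held the largest positive difference and the smallest adjusted p of all 43 genes. Slc38a3 (NM_023805), the system N carrier SNAT3 through which proximal tubule cells take up glutamine from the blood, stood at 2.04 and 1.54 in the control females, -0.63 and 0.89 in the control males, 2.67 and 2.94 in the NEKO females and 3.49 and 3.95 in the NEKO males. All NEKO mice were above all controls, and the control males were the lowest mice while the NEKO males were the highest. The means were 0.96 ± 1.16 and 3.27 ± 0.57 (SD, n = 4), which is 4.94-fold or a difference of 2.30 (SE 0.58, 95% interval 0.93 to 3.68, limma adjusted p = 0.139). An exact permutation test of Slc38a3 gave p = 0.0286 (two-sided), the smallest value that 4 mice against 4 can give. Any gene whose groups do not overlap has this value, so it adds nothing to the separation already described. In a fit where the genotype effect was allowed to differ by sex and then averaged, Slc38a3 passed the threshold (limma adjusted p = 0.0315), in a range of 0.0315 to 0.388 over the alternatives that adjust p. Far more of all features passed in that fit, 247 higher and 268 lower, against 19 and 25 in the fit with genotype and sex. Without control male replicate 4, the lowest mouse, the Slc38a3 difference was 1.74 (limma adjusted p = 0.222).

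Slc38a1 (NM_134086), the system A carrier SNAT1 for glutamine, alanine and serine, went the other way. Its levels were -0.83 and -0.73 in the control females, -1.27 and -1.27 in the control males, -1.43 and -1.66 in the NEKO females and -3.13 and -2.24 in the NEKO males. Every NEKO mouse was below every control, with the NEKO males lowest. The difference was -1.09 (SE 0.22, 95% interval -1.61 to -0.56, limma adjusted p = 0.0976), or 2.13-fold lower, and the other 2 probes of Slc38a1 that passed detection gave -0.84 and -0.93. With normexp background correction in place of the scanner's processed signal, Slc38a1 passed with a difference of -0.76 (limma adjusted p = 0.0481), in a range of 0.0481 to 0.454 over the alternatives. More of all features passed with that correction, 68 higher and 114 lower, against 19 and 25 with the processed signal.

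Slc38a7 (NM_172758), SNAT7, the carrier that lets glutamine out of lysosomes, separated the groups by a small step. Its control levels lay between -1.34 and -1.26, and the NEKO levels were -1.21 and -0.96 in the females and -1.06 and -1.04 in the males. The nearest mice of the groups, control female replicate 8 and NEKO female replicate 2, were close to each other. The difference was 0.23 (SE 0.08, 95% interval 0.05 to 0.42, limma adjusted p = 0.204). The other 4 genes of the family overlapped between groups. Slc38a2, SNAT2, a system A carrier known to be induced when amino acids are scarce, differed by 0.18 (95% interval -0.05 to 0.40), and the lysosomal arginine sensor Slc38a9 by -0.08 (-0.28 to 0.11). Slc38a10 differed by 0.09 (-0.11 to 0.28), and Slc38a4, a system A carrier best known from liver, by -0.46 with a wide interval of -1.39 to 0.46 and values from -0.75 to -0.18 when single mice were left out.

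The pair of neutral amino acid exchangers in the Slc1 family differed in opposite directions. Slc1a4 (NM_018861), ASCT1, which exchanges serine, alanine and cysteine, was at -1.81 and -1.33 in the control females, -0.47 and -1.48 in the control males, -0.68 and -1.10 in the NEKO females and 0.05 and -0.09 in the NEKO males. Control male replicate 4 was above both NEKO females, and without it the groups would not overlap. The difference was 0.82 (SE 0.24, 95% interval 0.25 to 1.38, limma adjusted p = 0.174), or 1.76-fold, and a second probe gave 0.98. Slc1a5 (NM_009201), ASCT2, which brings in glutamine in exchange for other neutral amino acids, was at 3.13 and 2.66 in the control females, 2.04 and 2.14 in the control males, 2.73 and 2.43 in the NEKO females and 1.48 and 1.54 in the NEKO males. Females were above males in both genotypes. Both NEKO males were below both control males, while in females NEKO replicate 2 was above control replicate 8. With sex in the fit the Slc1a5 difference was -0.45 (SE 0.13, 95% interval -0.76 to -0.13, limma adjusted p = 0.174). The glutamate carriers of the family differed little, with 0.02 (95% interval -0.16 to 0.21) for Slc1a1, the brush border carrier EAAC1, 0.23 (-0.30 to 0.77) for Slc1a3, -0.09 (-0.56 to 0.38) for Slc1a2 and -0.21 (-0.67 to 0.25) for Slc1a6.

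**Figure D2:**
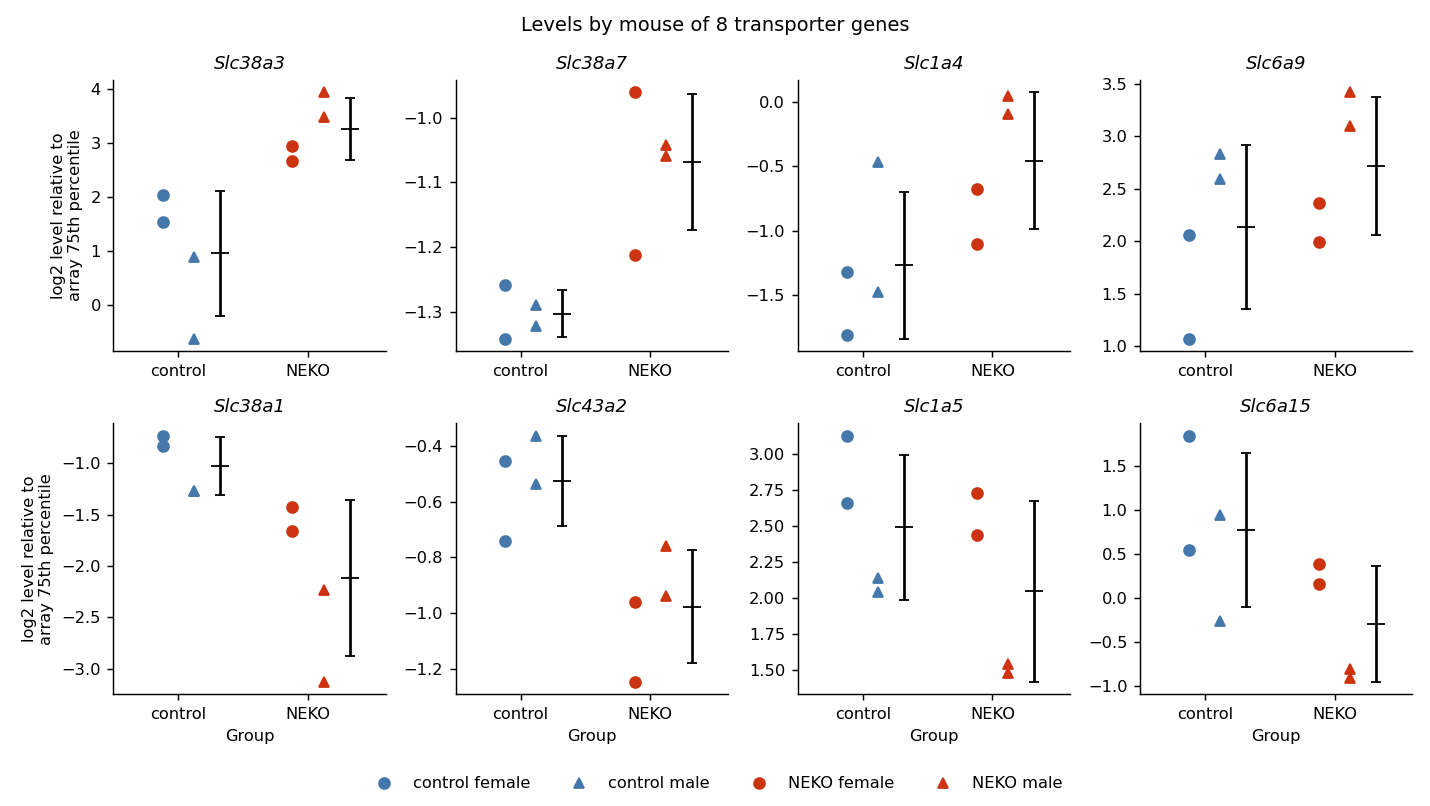
Level of 8 transporter genes in each kidney (log2 intensity relative to the array's 75th percentile, each panel with its own axis), with control mice in blue, NEKO mice in red, circles for females and triangles for males. The black bars show the mean ± SD of the 4 mice of a group; the groups do not overlap for Slc38a3, Slc38a7, Slc38a1 and Slc43a2 and overlap for the other 4.

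Among the carriers given here that pass amino acids from the tubule cell to the blood, only Slc43a2 separated the groups. It did not pass the adjusted threshold, and 5.36% of the features with a value on every array were separated downwards in this way. Slc43a2 (NM_173388), LAT4, a uniporter for branched-chain amino acids, phenylalanine and methionine in the basolateral membrane, was at -0.46 and -0.74 in the control females, -0.54 and -0.36 in the control males, -0.96 and -1.25 in the NEKO females and -0.76 and -0.94 in the NEKO males. All NEKO mice were below all controls, with the highest NEKO male only just below the lowest control female. The difference was -0.45 (SE 0.11, 95% interval -0.71 to -0.19, limma adjusted p = 0.129), and it was alike in females (-0.51) and males (-0.40). Its relatives Slc43a1, LAT3, and Slc43a3, a purine nucleobase carrier, differed by 0.18 (95% interval -0.67 to 1.04) and -0.24 (-0.69 to 0.20).

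The heavy chain 4F2hc and its partners showed no difference beyond the spread between mice. Slc3a2, the heavy chain, ranged from 4.65 to 5.53 in control and from 4.77 to 5.25 in NEKO mice, a difference of -0.14 (95% interval -0.44 to 0.17). Slc7a7, y+LAT1, which exports cationic amino acids and is the gene of lysinuric protein intolerance, ranged from 6.06 to 6.44 and from 6.15 to 6.38, a difference of 0.00 (-0.23 to 0.23). Slc7a8, LAT2, an exchanger of neutral amino acids, differed by -0.11 (-0.40 to 0.19). For these 3 basolateral proteins the 95% intervals all lay between -0.44 and 0.23. The other light chains, Slc7a5 (LAT1) and Slc7a6 (y+LAT2), differed by 0.26 (-0.35 to 0.88) and 0.02 (-0.18 to 0.21), and Slc7a6os, the neighbour of Slc7a6 that is no carrier, by -0.23 (limma adjusted p = 0.202). The Slc7a5 difference ran from 0.04 to 0.47 when single mice were left out.

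Of 7 genes counted here with the brush border, 6 differed by no more than 0.22 between the groups. Slc3a1 and Slc7a9, the heavy and light chain of the cystine and dibasic amino acid exchanger whose loss causes cystinuria, differed by 0.11 (95% interval -0.09 to 0.31) and 0.00 (-0.28 to 0.28). Slc6a19, B0AT1, the main neutral amino acid carrier of the early tubule, was between 3.44 and 3.92 in control and between 3.24 and 3.70 in NEKO mice. The difference was -0.22 (-0.52 to 0.08). Its partner protein Cltrn (collectrin) differed by -0.14. Slc6a18, B0AT3, a carrier of glycine and alanine, and Slc6a20b differed by 0.10 (-0.23 to 0.42) and 0.22 (-0.04 to 0.48), and Slc6a20a had no probe named here. Together with Slc1a1 these 6 genes had differences from -0.22 to 0.22, and their 95% intervals all lay between -0.52 and 0.48. The other carrier counted with the brush border, Slc36a2, had a wider spread and is given next. Slc7a13, which also pairs with the Slc3a1 heavy chain, was not counted among the 7. Its difference was larger (-1.46, 95% interval -3.12 to 0.19), and it is given below with the sex-dependent genes.

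Slc36a2 (NM_153170), PAT2, a brush border, proton-coupled carrier of glycine and proline, had a larger difference of 1.23 with an interval of -1.04 to 3.50 (limma adjusted p = 0.517). Slc36a2 was at -5.06 and -1.82 in the control females, -5.31 and -2.36 in the control males, -1.24 and -3.17 in the NEKO females and -3.48 and -1.75 in the NEKO males. Within each genotype and sex the pair of mice was far apart, and the groups overlapped. Slc36a2 is also known as a surface protein of brown adipocytes, and the adipose markers Adipoq, Plin1 and Ucp1 varied between the same kidneys: their summed level was -1.54 and 2.19 in the control females, -2.47 and 1.44 in the control males, 2.95 and 0.21 in the NEKO females and -0.24 and 1.96 in the NEKO males. From lowest to highest, the 8 mice stood in the same order for Slc36a2 and for Plin1, the perilipin of fat droplets, and 6 of 8 mice held the same rank for Slc36a2 and the sum. With Adipoq the rank was shared by 4 mice and with Ucp1, the uncoupling protein of brown fat, by 3. Slc36a2, Plin1 and Ucp1 were each well above background on only 3 of the 4 control arrays, so their lowest values were near the detection limit. Between genotypes Adipoq, Plin1 and Ucp1 differed by 1.28, 1.48 and 1.42, all higher in NEKO mice (limma adjusted p = 0.571, 0.519 and 0.659). All 3 adipose markers were measured in each group, ranging in their sum from -2.47 to 2.19 in control and from -0.24 to 2.95 in NEKO mice, and the part of adipose tissue in the Slc36a2 levels was not tested. Without control female replicate 1 the Slc36a2 difference was 0.58, and without control male replicate 4 it was 0.64. The other carriers of the family, Slc36a1 (PAT1, in lysosomes) and Slc36a4, differed by -0.06 (-0.28 to 0.17) and 0.07 (-0.32 to 0.46).

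**Figure D3:**
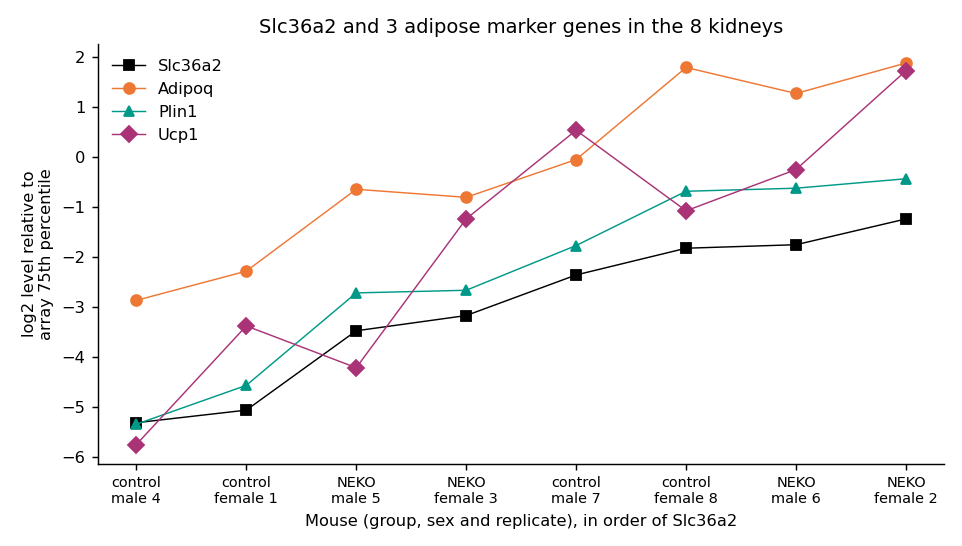
Level of Slc36a2 (black squares) and of the adipose markers Adipoq, Plin1 and Ucp1 in each of the 8 kidneys, as log2 intensity relative to the array's 75th percentile, with the mice ordered by Slc36a2 and lines joining the values of a gene. Plin1 climbs with Slc36a2 at every step from control male 4 to NEKO female 2. Control male 4 and control female 1 are at the low end, NEKO male 6 and NEKO female 2 at the high end, with both genotypes in between.

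Among the cationic amino acid carriers of the CAT type and their relative Slc7a4, only Slc7a3 was at an unadjusted p under 0.05. Slc7a3 (CAT3) was -3.29 and -3.79 in the control females, -3.63 and -3.81 in the control males, -3.01 and -3.35 in the NEKO females and -3.30 and -3.44 in the NEKO males. The groups overlapped through control female replicate 1, and the difference was 0.36 (95% interval 0.04 to 0.68, limma adjusted p = 0.236). Slc7a1 (CAT1), the widespread arginine and lysine carrier, differed by -0.26 (-0.58 to 0.06). Slc7a2 (CAT2), well above background on 7 of 8 arrays, differed by -0.49 with an interval of -1.75 to 0.77 and values from -0.97 to -0.10 when single mice were left out, and Slc7a4, a relative of the CAT carriers, by -0.11 (-0.38 to 0.16).

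The remaining Slc6 genes held 4 of the 12 at an unadjusted p under 0.05, and none of them separated the groups. Slc6a9 (NM_008135), the glycine carrier GlyT1, was 2.06 and 1.07 in the control females, 2.83 and 2.59 in the control males, 2.36 and 1.99 in the NEKO females and 3.42 and 3.1 in the NEKO males. Males were above females in both genotypes, and NEKO males were above control males. The difference was 0.58 (SE 0.22, 95% interval 0.06 to 1.10, limma adjusted p = 0.240).

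Slc6a15 (NM_175328), B0AT2, a sodium-driven carrier of branched-chain amino acids and proline, was 0.54 and 1.84 in the control females, 0.94 and -0.26 in the control males, 0.38 and 0.16 in the NEKO females and -0.91 and -0.81 in the NEKO males. Control male replicate 7 was below both NEKO females, and the NEKO males were the lowest mice. The difference was -1.06 (SE 0.35, 95% interval -1.88 to -0.25, limma adjusted p = 0.200), or 2.09-fold lower. Slc6a14, a broad carrier of neutral and cationic amino acids, differed by -0.61 (-1.19 to -0.03) and was well above background on all 4 control but only 3 NEKO arrays. Its difference was -0.07 under normexp background correction and -0.39 without NEKO female replicate 3. Creatine carrier Slc6a8, GABA carrier Slc6a13 and serotonin carrier Slc6a4 differed by -0.04 (-0.29 to 0.22), 0.08 (-0.18 to 0.33) and 0.37 (-0.24 to 0.99).

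Differences between the sexes were large for a few of these carriers. In control mice 5 of the 43 genes differed by more than 1 between male and female means and 29 by less than 0.5. Slc7a12 (NM_080852), an exchanger of small neutral amino acids whose kidney expression is known to be female-biased, was 5.08 and 5.56 in the control females, -0.44 and 2.21 in the control males, 5.76 and 5.06 in the NEKO females and 3.14 and 4.12 in the NEKO males. The females were alike in both genotypes, and both NEKO males lay above both control males and below all females. Its difference between genotypes was 0.09 in females and 2.74 in males, and the difference of 2.65 between those did not pass (limma adjusted p = 0.519 for the interaction). Fitted over both sexes it was 1.42 (95% interval -0.36 to 3.19, limma adjusted p = 0.359), and 0.62 without control male replicate 4.

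Slc7a13 (NM_028746), AGT1, an aspartate, glutamate and cystine carrier that pairs with the Slc3a1 heavy chain in the last proximal tubule segment and is known to be male-biased, showed the opposite sex pattern. Its levels were -0.74 and 2.29 in the control females, 4.90 and 4.80 in the control males, -0.44 and -2.11 in the NEKO females and 4.25 and 3.70 in the NEKO males. Both NEKO males were below both control males, and the females of a genotype differed by more than 1 from each other. The difference was -2.05 in females and -0.88 in males, and -1.46 over both (95% interval -3.12 to 0.19, limma adjusted p = 0.321). A second probe gave -1.55, and without control female replicate 8 the value was -0.74. The summed level of 6 markers of the last proximal tubule segment (S3), several of them sex-dependent, was 5.97 and 6.08 in the control females, 8.00 and 7.48 in the control males, 6.93 and 6.18 in the NEKO females and 7.07 and 6.10 in the NEKO males. In males the sum was lower in NEKO than in control mice, as Slc7a13 was, whereas in females it was higher in both NEKO mice and Slc7a13 was lower on average. The median difference of the 6 markers was 0.47 in females and -1.17 in males. Over both sexes 0 of the 6 passed the unadjusted threshold for genotype, and 3 of 6 had an interaction of sex and genotype at an unadjusted p under 0.05 (0 at the adjusted threshold). The shares of all features at these unadjusted thresholds were 18.0% for genotype and 10.5% for the interaction. The part of this segment in the Slc7a12 and Slc7a13 levels was not tested.

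**Figure D4:**
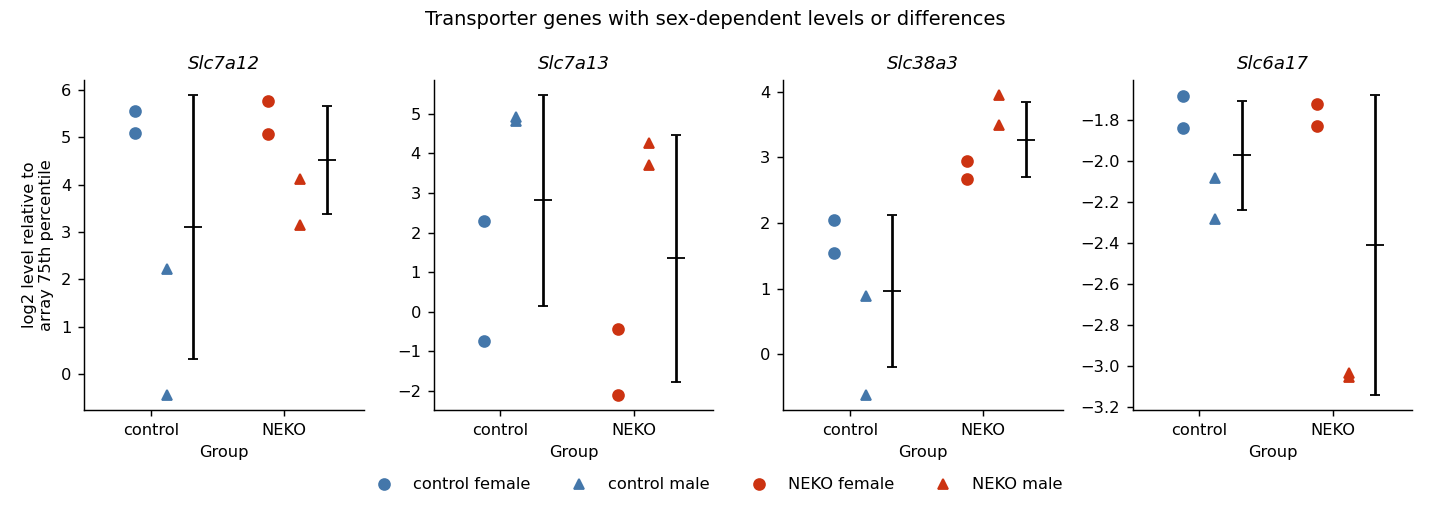
Levels of Slc7a12, Slc7a13, Slc38a3 and Slc6a17 in each kidney (log2 intensity relative to the array's 75th percentile), with control mice in blue, NEKO mice in red, circles for females, triangles for males and black bars for the mean ± SD of 4 mice. Female and male mice form separate clusters for Slc7a12 and Slc7a13, and for Slc38a3 and Slc6a17 the step from control to NEKO is larger in males than in females.

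The genotype effect was also set against sex for every gene. None of the 43 had an interaction of sex and genotype at limma adjusted p under 0.05, and 2 had an unadjusted p under 0.05, Slc6a17 and Slc38a3. Over all features 0.0153% passed the adjusted and 10.5% the unadjusted threshold. Slc6a17 (NM_172271), NTT4, a carrier of neutral amino acids into synaptic vesicles, was -1.68 and -1.84 in the control females, -2.28 and -2.08 in the control males, -1.83 and -1.72 in the NEKO females and -3.05 and -3.04 in the NEKO males. Only the NEKO males were set off from the others, and the difference was -0.02 in females and -0.86 in males (interaction -0.85, limma adjusted p = 0.145). For Slc38a3 the difference was 1.02 in females and 3.59 in males (interaction 2.57, limma adjusted p = 0.244). The sign of the difference was the same in both sexes for 31 genes and opposite for 12.

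**Figure D5:**
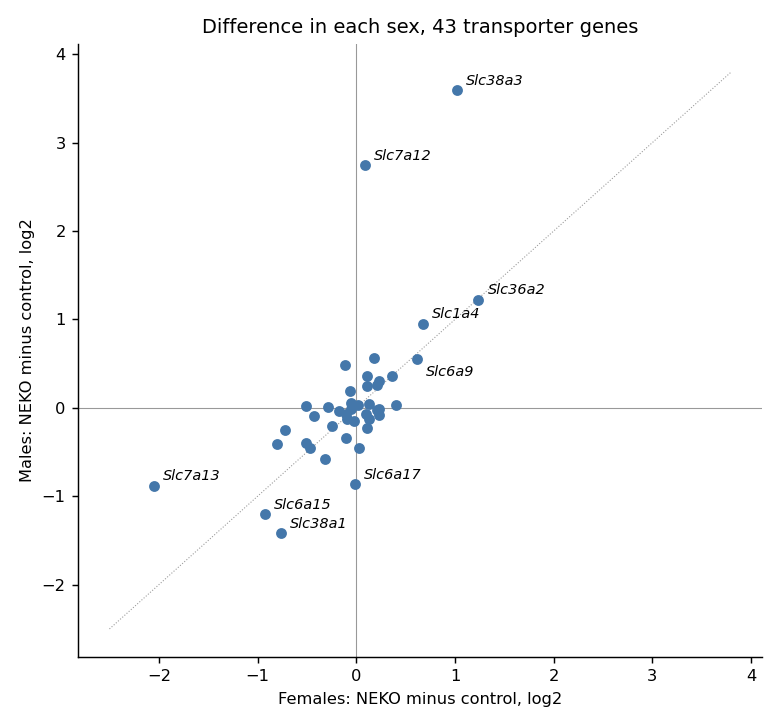
Difference between NEKO and control means in females (x axis) and males (y axis), both on the log2 scale, for the 43 transporter genes, with 2 mice behind each mean; the dotted line marks equal differences. Most genes lie near 0 in both sexes, Slc38a3 and Slc7a12 lie far above the line, and Slc36a2, Slc1a4 and Slc6a9 lie near it.

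Promoters were read for the genes at an unadjusted p under 0.05, to show whether they hold the sequences that Nrf2 and ATF4 are known to bind. RefSeq promoters (build GRCm38.p6, from 250 bases before to 50 bases after the transcription start) were at hand for 29 of the 43 genes, 44 promoters in all, for 3 of the 5 genes at a positive difference (Slc1a4, Slc6a9 and Slc38a7) and for 4 of the 7 at a negative difference (Slc43a2, Slc7a6os, Slc6a14 and Slc6a17). None of those 4 held either set of letters below. The core of the antioxidant response element bound by Nrf2, TGACNNNGC on either strand, was in 9 of the 44 promoters (20.5%), those of Slc6a9, Slc7a1, Slc7a6, Slc6a13, Slc36a1, Slc38a2 and Slc43a1, and in 12.4% of all 32851 promoters of this length. The amino acid response element bound by ATF4, TGATGNAA on either strand, was in 3 of the 44 (6.82%), those of Slc1a4 and Slc7a7, and in 3.97% of all promoters. Promoters of a gene can overlap, and those of Slc7a6 and of Slc7a7 share a match, so the matches are 8 distinct sites for the former motif and 3 for the latter. The motifs overlapped nowhere in the sequences shown. Shown first is the promoter of Slc1a4 at chr11:20332664-20332963 (minus strand), where the capitals mark a reverse-strand match to TGATGNAA that begins at position -4, followed by the 2 promoters of Slc6a9 with a match, at chr4:117849100-117849399 and chr4:117855297-117855596 (plus strand), where the capitals mark TGACNNNGC at positions -46 and -45. All are written 5′ to 3′ along the gene's strand, and the labels upstream and downstream compare only the 2 Slc6a9 promoters shown.
Slc1a4: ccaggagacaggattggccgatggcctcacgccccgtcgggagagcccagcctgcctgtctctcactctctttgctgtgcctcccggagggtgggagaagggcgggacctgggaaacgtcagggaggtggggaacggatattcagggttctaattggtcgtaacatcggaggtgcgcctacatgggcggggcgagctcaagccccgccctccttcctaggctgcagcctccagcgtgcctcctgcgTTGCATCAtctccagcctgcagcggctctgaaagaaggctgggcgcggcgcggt
Slc6a9, upstream start: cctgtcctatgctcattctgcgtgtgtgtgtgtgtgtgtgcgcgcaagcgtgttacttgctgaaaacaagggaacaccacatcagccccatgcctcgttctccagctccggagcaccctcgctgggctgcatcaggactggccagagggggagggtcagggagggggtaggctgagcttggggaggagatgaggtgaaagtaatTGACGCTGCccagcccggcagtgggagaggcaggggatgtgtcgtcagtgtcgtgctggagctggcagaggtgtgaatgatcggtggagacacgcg
Slc6a9, downstream start: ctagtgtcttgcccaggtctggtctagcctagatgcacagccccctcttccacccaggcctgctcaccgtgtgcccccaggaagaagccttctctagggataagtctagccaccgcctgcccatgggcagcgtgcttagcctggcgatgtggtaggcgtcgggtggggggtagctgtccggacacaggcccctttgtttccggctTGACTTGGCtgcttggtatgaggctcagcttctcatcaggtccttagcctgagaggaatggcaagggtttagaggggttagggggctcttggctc

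These are letter matches and say nothing of binding in the kidney. The remaining promoter of Slc6a9, at chr4:117835008-117835307 and upstream of both shown, held neither set of letters within this window. Nor did the promoter of Slc38a7. Of the other genes with a match, Slc7a7, which holds TGATGNAA, differed by 0.00 between genotypes. Those with TGACNNNGC differed by 0.18 (Slc38a2), 0.18 (Slc43a1), 0.08 (Slc6a13), 0.02 (Slc7a6), -0.06 (Slc36a1) and -0.26 (Slc7a1).

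Genes of the ATF4 amino acid response gave values in both directions. All 20 on the list were tested, and 0 passed the adjusted threshold. At an unadjusted p under 0.05, 2 were higher and 2 lower, which is 20% of the list against 18.0% of all features. The median was -0.03 (all features, -0.03). Asparagine synthetase Asns and the mitochondrial serine hydroxymethyltransferase Shmt2 differed by 0.31 and 0.39. Phgdh and Psat1, enzymes of serine synthesis, differed by -0.53 and -0.75, and Atf4 itself by 0.08. Of 24 carriers and partner proteins of other families (peptide, mitochondrial, vesicular and lysosomal), 19 were tested, with a median of -0.11. Slc17a7, a vesicular glutamate carrier, was not well above background on any NEKO array and was the single gene of this list to pass (at least 2.25-fold lower, limma adjusted p = 0.0391). It met the detection filter through the 4 control arrays alone, so a gene kept in this way had to differ, and the call is no support for a change in the list. At an unadjusted p under 0.05 it was joined by Slc17a8 (-0.36), the mitochondrial aspartate-glutamate exchanger Slc25a12 (-0.31) and the branched-chain amino acid carrier Slc25a44 (-0.31), all lower, and by 0 genes at a positive difference. With Slc17a7 these lower genes made 21.1% of the 19 tested. Over all features 10.6% were lower and 7.37% higher at that threshold.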

How the data were processed

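Kidney RNA of 8 mice was measured on 1-colour Agilent arrays, 1 mouse each. Per the file headers, the authors read the spots with Agilent Feature Extraction 10.7.3.1, whose processed signal is a background-subtracted intensity, and a deposited value table holds log2 levels that equal the processed signal scaled to each array's 75th percentile and centred on each probe's median (100% of values within 0.01). Here the processed signal was turned to log2, less the array's 75th percentile. Control spots were left out, spots flagged as outliers (73 to 172 of 43379 an array) were set missing, and spots of a probe were averaged. On each array 61.7% to 65.7% of 41174 probes were well above background. Probes were named through RefSeq accessions (26690 probes, 18217 genes), and a gene was represented by its brightest probe among those well above background on at least 4 arrays. Slc6a20a and Slc38a6 had no probe named here.

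Differences between NEKO and control mice were fitted in limma 3.58.1 (R 4.3.3) with genotype and sex, with Benjamini-Hochberg adjustment over 19593 features and a threshold of 0.05; the p-values measure the spread between these mice, and the 4 arrays a group limit the precision. The interaction was fitted in the same way, and exact permutation tests permuted the group over the 8 mice. All 43 members are named; given in most detail were those at an unadjusted p under 0.05, those whose groups did not overlap, the 6 largest differences in each direction, those at the detection limit, and the carriers known from the proximal tubule. The members, gene lists and motifs were chosen with earlier results of these data known. The alternatives changed the background correction, scaling, probe filter, choice of probe, source of values, covariates, variance model, test, threshold and mice. Some genes are not reported here.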

Additional observations from a re-analysis of the deposited data

Results flagged for a closer look

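In 3 of 86 groups of 4 mice, 1 mouse lay far from the other 3 by the ratio of its gap to the group's range, and chance flags about 1 in 20 groups. Slc1a3, a glutamate carrier, was -1.86 in NEKO female replicate 2 and between -2.95 and -2.77 in the other NEKO mice (ratio 0.836). Slc43a1, a carrier of branched-chain amino acids, was -1.44 in the same mouse and between -3.04 and -2.91 in the others (ratio 0.918). Slc7a8 was 4.35 in NEKO female replicate 3 and between 3.86 and 3.89 in the others (ratio 0.943).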

How the results depend on the processing

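For the 43 transporters under 21 alternatives, 865 of 898 values kept their direction and their side of the threshold and 6 passed it. The other 27, in 11 genes, changed sign, all from differences of at most 0.18 in size and none to more than 0.08; 26 of them were smaller than their standard error in the report, and the other was Slc38a10, at -0.0122 with the mean of its probes. The count of transporters called higher, 0 in the report, was 1 where the genotype effect was averaged over the sexes (Slc38a3) and 2 under the methods' unpaired comparison without adjustment (Slc38a3 and Slc38a7). The count called lower, also 0, was 1 under normexp background correction (Slc38a1) and 2 under the methods' unpaired comparison without adjustment (Slc43a2 and Slc7a6os). After adjustment that comparison called 0 transporters in each direction. Every setting that called a transporter also passed more of all features than the report did (19 upwards, 25 downwards). The unpaired comparison without adjustment passed 943 upwards and 1269 downwards. For the sex-averaged fit these numbers were 247 and 268, and for normexp correction 68 and 114. A fit with weighted arrays (57 upwards and 110 downwards) and one with another variance model (40 and 53) also passed more features but called 0 transporters. At an unadjusted p under 0.05, the 7 lower genes became 3 with no sex term and 2 under the methods' unpaired comparison, and the 5 higher became 2 under that comparison. When single mice were left out, the counts ranged from 3 to 7 higher and from 4 to 8 lower; the 3 higher came without NEKO female replicate 2, control male replicate 7 or control female replicate 8, and the 4 lower without NEKO male replicate 5. The causes were not tested. The median difference ranged from -0.06 to 0.00 with a mouse left out, the counts called at the adjusted threshold stayed at 0, and the interaction count was 0 under every alternative run. The paper states that littermates served as controls, but the labels name no litter. No paired analysis was therefore possible, as the replicate numbers run from 1 to 8 over both groups and none is shared. Slide as a block was not run apart from the sex term, since slide and sex are the same split. Genes with low signal, such as Slc36a4 and Slc1a6, were near the detection limit, and small differences in them could not be seen.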

Other observations

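The extremes of the 43 transporters were unevenly spread over the mice. NEKO male replicate 5 had the lowest level of 12 genes (27.9%, against 13.5% of all features) and control male replicate 4 of 11 (25.6%, against 16.7%), while NEKO female replicate 2 had the highest level of 11 genes (25.6%, against 7.45%) and the lowest of 0. Beyond Slc7a12, Slc7a13 and Slc38a3, the control males and females differed by more than 1 for the leucine carrier Slc43a1 (-1.31, male minus female) and the glycine carrier Slc6a9 (1.14), and in NEKO mice these differences were -0.71 and 1.08. Sex and slide cannot be told apart in either.

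Of 14 genes with more than 1 probe above background, the probes gave the same sign for 10 and opposite signs for 4 (Slc38a9, Slc38a10, Slc6a13 and Slc7a6), where no probe differed by more than 0.19 between genotypes. The widest gap between probes was 0.44, for Slc6a17.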
